A study of Mus musculus with 4 samples.

Results

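Microglia of the allergy group were compared between 2 ages: the OVA array at postnatal day 70 (P70) minus the OVA array at postnatal day 30 (P30), which are 2 of the 4 arrays in the series. The PBS arrays of the same ages, which are the controls, are given beside them. All 4 groups were male C57BL/6J mice, microglia came from the whole brain, and the cells were taken on the day after an intranasal challenge. The groups differ in treatment (OVA or PBS) and in age. Per the series design, each group pooled material of 4 samples and went onto 1 array, so the spread between mice is not seen. No test was possible: each difference below lies between 2 pooled arrays and has no error of its own, and "higher" and "lower" describe those arrays.

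Microglia are the resident macrophages of the brain and keep a set of homeostatic genes for sensing purines, chemokines and TGF-beta, which they turn down when activated. Immediate early genes are transcribed within minutes of many stimuli, without new protein synthesis. A cell suspension from brain can also hold neutrophils and monocytes of the blood and macrophages of the meninges and vessels, and these share part of their expressed genes with microglia.

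Levels are log2 of the deposited linear intensities, and a difference of 1 is 2-fold. Of 17623 named genes, 8812 had a 4-array mean level at or above the median gene (7.18) and are called expressed; Ces2e (7.182464) lay at this floor and Odf3 (7.182431) just under it. As deposited, P70 was above P30 by a median of 0.39 in OVA over the expressed genes, and this shift grew with brightness. It was 0.04 for the 3007 genes whose mean over the OVA arrays lay between 7 and 8, 0.50 for those between 8 and 10, 1.01 between 10 and 12, 1.24 between 12 and 14, and 1.17 above 14. The same shift stood in PBS (0.03, 0.34, 0.79, 1.00 and 1.07 in those ranges). Differences are therefore given after a curve fitted along the level was subtracted ("centred"), and show where a gene stood relative to others of its brightness. Genes within 0.01 of the highest value in both arrays, or with a mean of at least 12 and a difference within 0.0001 of that between the highest values, were treated as carrying no measured difference; 10 were of this kind between the OVA arrays, Cx3cr1, Cst3 and Sparc among them. All 33 homeostatic microglia genes found lay at or above the floor in each of the 4 arrays. The floor is only the level of the median gene, so this does not show how pure the microglia were.

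**Figure D1:**
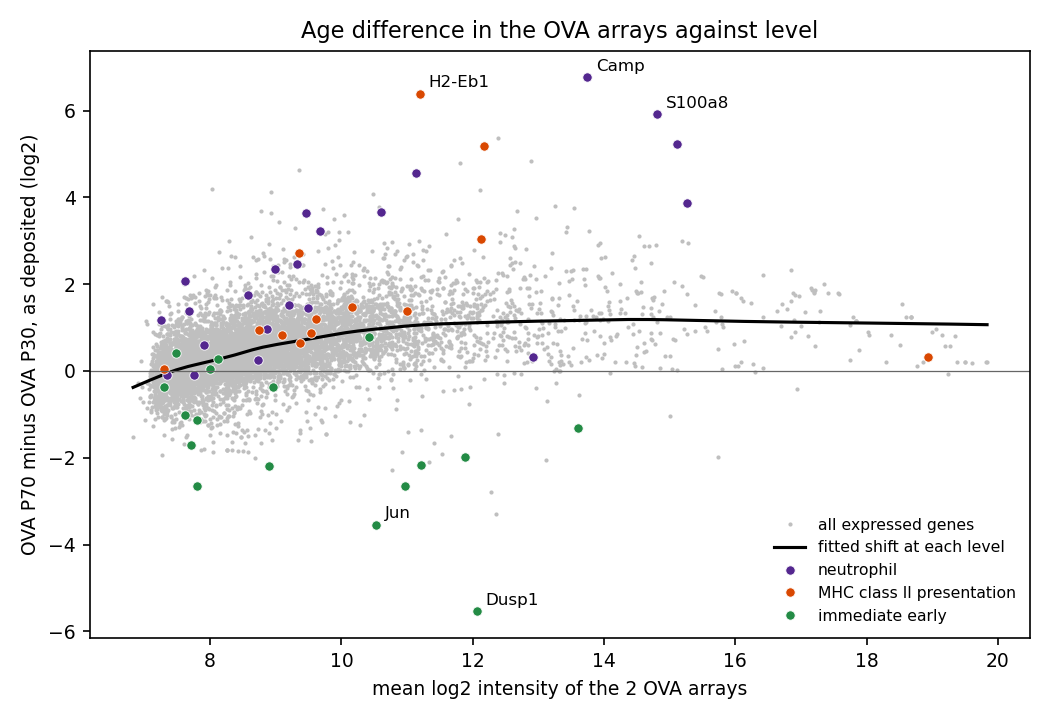
OVA P70 minus OVA P30 as deposited (vertical axis, log2) against the mean log2 intensity of the 2 OVA arrays (horizontal axis); each grey point is an expressed gene and the black curve is the fitted shift that centring subtracts. The curve climbs from about 0 among dim genes to over 1 among bright genes, with Camp, H2-Eb1 and S100a8 far above it and Dusp1 and Jun far below.

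After centring, a P70 level at least 2-fold above P30 was seen for 452 of the 8812 expressed genes in OVA (5.13%) and 297 at least 2-fold lower (3.37%), so 60.3% of the genes past 2-fold were higher. This split depended on the scaling and on the genes kept: 1741 were higher and 138 lower as deposited (92.7% higher), 1639 and 124 after quantile normalization (93.0% higher), and, of 15071 genes, 990 and 2027 with no class of gene left out, so that predicted genes and receptor families entered (32.8% higher). The floor is set on the mean of the 4 arrays, so 71 of the 452 were under it in both P30 arrays and 12 of the 297 in both P70 arrays. A 4-fold difference was reached by 63 genes higher and 44 lower. The shares of 5.13% higher and 3.37% lower are the background for the list counts in OVA below. Dnajb11 (1.0001) and Erich1 (0.9993) lay on either side of the 2-fold line. Genes of neutrophils and monocytes, MHC class II genes and mitochondrially encoded genes led the higher side. Immediate early genes and members of multicopy families, Speer among them, led the lower side.

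**Figure D2:**
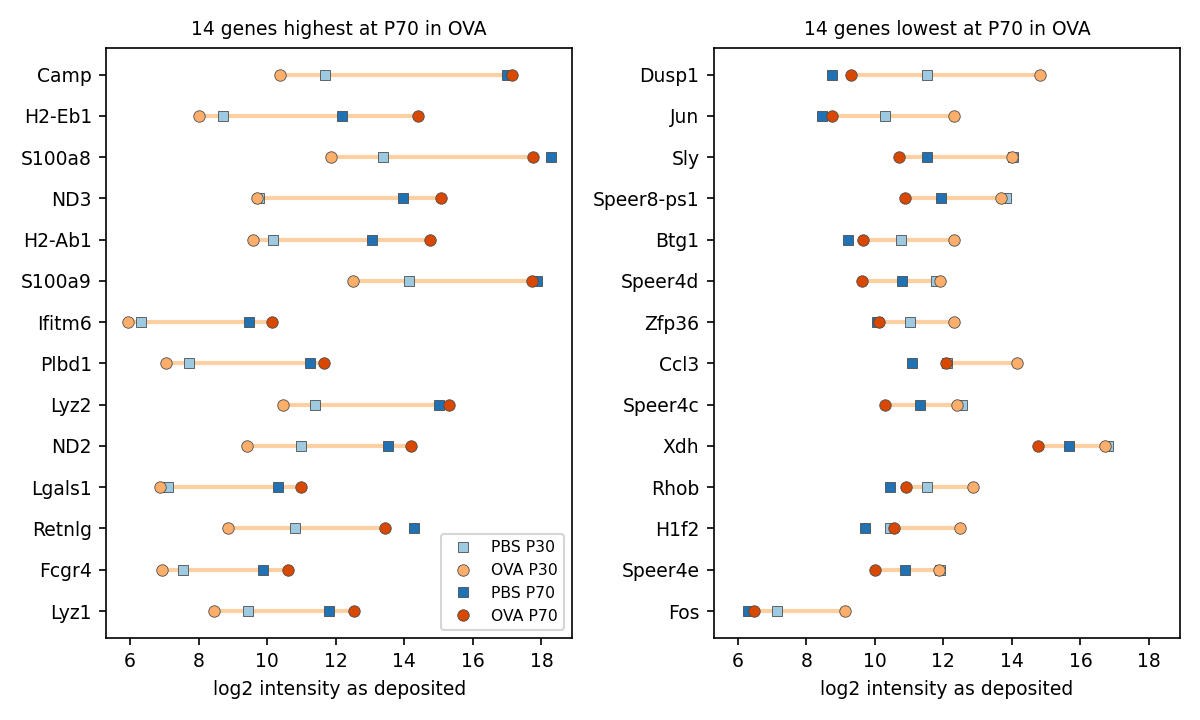
Log2 intensity as deposited in the 4 arrays (circles for OVA, squares for PBS, light for P30, dark for P70) for the 14 genes with the highest and the 14 with the lowest centred OVA difference; bars join the OVA arrays. For the 14 higher genes OVA P30 has the lowest value of the 4 arrays, and for Dusp1, Jun, Btg1, Speer4d, Zfp36, Ccl3, Rhob, H1f2 and Fos it has the highest.

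Neutrophil granule and alarmin genes were among those with the largest positive differences. Camp, which encodes the antimicrobial peptide cathelicidin, read 10.36 in OVA P30 and 17.13 in OVA P70, with 11.67 and 16.99 in PBS at the same ages. That is 5.59 after centring, or 48.3-fold, against 4.28 in PBS. S100a8, a subunit of the calcium-binding alarmin calprotectin, read 11.85 and 17.77 in OVA and 13.38 and 18.28 in PBS, and its partner S100a9 read 12.49 and 17.72 in OVA and 14.13 and 17.86 in PBS. Their centred OVA differences were 4.73 and 4.06. For all 3 genes both P70 arrays lay above both P30 arrays, the P70 arrays lay closer to each other than the P30 arrays did, and OVA P30 was the lowest array. Retnlg, a resistin-like protein of neutrophils, read 8.86 in OVA P30 and 13.42 in OVA P70 (3.51 after centring). The collagenase gene Mmp8 read 7.64 and 11.28 (2.91), the granule gene Ngp 13.33 and 17.20 (2.70), and lactoferrin, Ltf, 8.77 and 12.44 (2.69).

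Of the 40 neutrophil genes named, 35 were found, 22 were expressed, and 14 of these were at least 2-fold higher at P70 in OVA and none lower; 1 of the 14 was under the floor in both P30 arrays. Their median was 1.52, against -0.0045 for all expressed genes and 1.36 for the same list in PBS, where 12 of the 22 were higher (background 4.21% higher and 2.7% lower). The members did not move alike. The receptor genes Csf3r (-0.83) and Cxcr2 (-0.27) and the amplifying receptor Trem1 (-0.24) were not higher after centring, and genes of the earliest granules made in the bone marrow (Elane, Mpo, Prtn3 and Ctsg) lay under the floor. Ly6g, the usual surface marker of mouse neutrophils, read 8.45 and 9.96 in OVA (0.86). The summed intensity of the 35 genes found was 82297 in PBS P30, 33660 in OVA P30, 904159 in PBS P70 and 772180 in OVA P70, so OVA P70 was 22.9 times OVA P30 and PBS P70 was 10.99 times PBS P30. Probes of few genes dominate such a sum. In a pooled bulk sample, more cells of a type and more RNA per cell cannot be told apart.

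A short C/EBP-type motif was counted in the neutrophil promoters, because C/EBP factors are known to drive granule genes. The motif was TTNNGCAA on either strand, in the 250 bases before the start in RefSeq (GRCm38.p6). It occurred in 7 of the 13 genes past 2-fold that had a promoter entry (S100a9, Retnlg, Ngp, Ltf, Lcn2, Mmp8 and Anxa1) and in 9.56% of all 32851 promoters of that length. The promoters of Ngp (chr9:110419558-110419807, plus strand) and Ltf (chr9:111019042-111019291, plus strand) are shown as members that were higher together, with the motif in capitals. A match describes the letters and is not evidence of binding.
Ngp: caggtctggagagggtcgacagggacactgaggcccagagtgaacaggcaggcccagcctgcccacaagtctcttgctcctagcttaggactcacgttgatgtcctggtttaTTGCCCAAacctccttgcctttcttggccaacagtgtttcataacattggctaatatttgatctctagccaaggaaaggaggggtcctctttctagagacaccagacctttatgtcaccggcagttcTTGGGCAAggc
Ltf: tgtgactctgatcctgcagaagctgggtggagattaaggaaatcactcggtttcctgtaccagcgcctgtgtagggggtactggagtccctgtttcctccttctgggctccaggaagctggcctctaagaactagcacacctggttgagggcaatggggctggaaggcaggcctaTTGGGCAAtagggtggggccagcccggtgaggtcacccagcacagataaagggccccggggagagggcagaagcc

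Monocyte genes stood beside them. Of 21 expressed members, 13 were at least 2-fold higher at P70 in OVA and none lower, with a median of 1.34 (1.01 in PBS, 11 of 21 higher); 2 of the 13 were under the floor in both P30 arrays. Ly6c2, the surface antigen of classical monocytes, read 10.03 in OVA P30 and 14.19 in OVA P70, with 9.78 and 14.14 in PBS (3.05 after centring in OVA, 3.46 in PBS). The lysozyme gene Lyz2, expressed by most myeloid cells, read 10.47 and 15.32 in OVA (3.70) and Lyz1 8.44 and 12.52 (3.12). Ifitm6 was under the floor in OVA P30 (5.93) and read 10.13 in OVA P70 (3.97), and the calcium-binding S100a4 read 7.10 and 10.74 (3.06). Ccr2, the chemokine receptor that lets monocytes leave the marrow, read 8.11 and 10.31 (1.53). For these 6 genes both P70 arrays were above both P30 arrays. Ly6c1 (-0.48), Cd44 (0.54), Spn (0.06) and Nr4a1 (0.38) stayed under 2-fold. The summed intensity of the 28 monocyte genes found was 10967 in PBS P30, 8875 in OVA P30, 72781 in PBS P70 and 88036 in OVA P70. Of the 50 genes with the highest OVA differences, 8 were on the neutrophil list and 6 on the monocyte list. How far cells other than microglia take part in the other differences below was not tested.

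**Figure D3:**
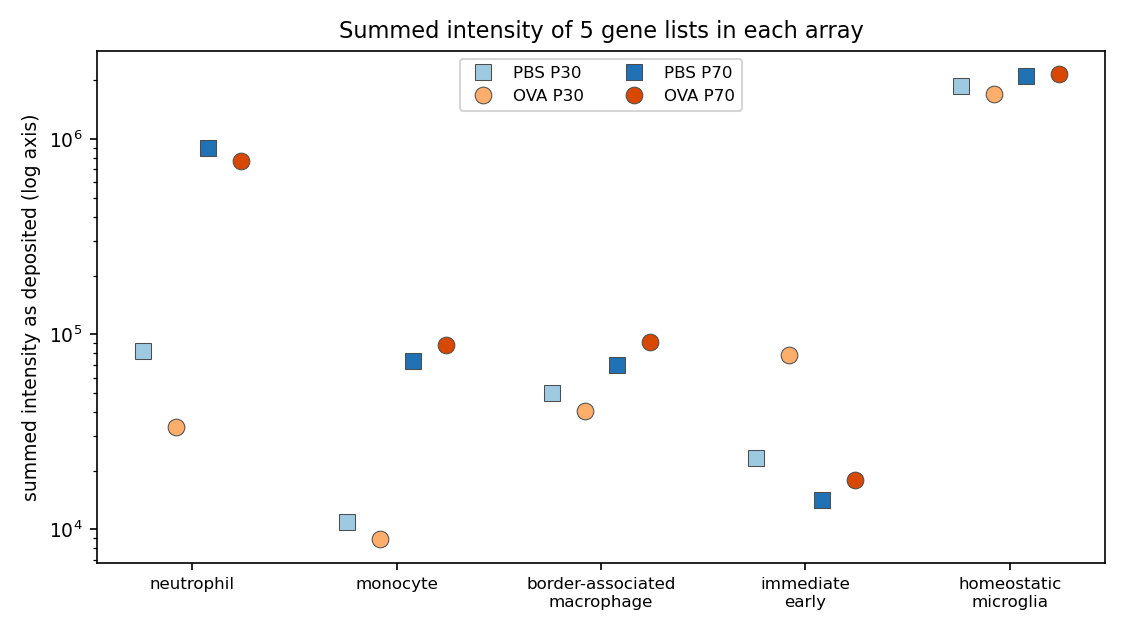
Summed deposited intensity (log axis) of the genes found of 5 lists in each array. The neutrophil and monocyte sums are higher in both P70 arrays than in both P30 arrays, the immediate early sum is highest in OVA P30 (78007), and the homeostatic sums lie between 1700510 and 2157700.

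The MHC class II chains were far higher at P70, with larger differences in OVA than in PBS, while most other members of the class II list stayed under 2-fold. Class II molecules are alpha and beta chain pairs that show peptides from the lysosome to helper T cells. H2-Eb1, the beta chain of I-E, read 8.01 in OVA P30 and 14.40 in OVA P70, with 8.72 and 12.19 in PBS. Its centred difference was 5.33 (40.2-fold) in OVA and 2.74 (6.68-fold) in PBS. H2-Ab1, the beta chain of I-A, read 9.58 and 14.76 in OVA and 10.17 and 13.05 in PBS, with centred differences of 4.06 and 2.01. H2-Aa, its alpha chain, read 7.9997 and 10.71 in OVA and 8.40 and 9.69 in PBS (2.02 and 0.86). For all 3 chains OVA P30 was the lowest of the 4 arrays and OVA P70 the highest. Ifi30, a reductase that opens disulphide bonds of antigens, read 10.60 and 13.65 in OVA (1.94).

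These 4 were the members past 2-fold among 13 expressed, with none lower, and the list median was 0.41 (0.31 in PBS). The peptide loading genes H2-DMa (0.35), H2-DMb1 (0.57) and H2-DMb2 (0.14) and their modulators H2-Oa (0.43) and H2-Ob (0.20) stayed under 2-fold. So did Rfx5 (0.13), Rfxap (-0.06) and Rfxank (0.41), subunits of the factor that binds class II promoters, while Ciita, its coactivator, lay under the floor. Ctss, the protease that trims the invariant chain, stood at 18.77 and 19.09 in OVA, near the top of the scale (-0.77). Dendritic cells also express class II: of 11 expressed dendritic cell genes, 1 was higher (Cd209a, 2.02) and 1 lower (Ccr7, -1.55), with a median of 0.09. Of 5 expressed B cell genes none passed 2-fold, and Ighm read 14.38 and 16.16 in OVA (0.62). Monocytes and border-associated macrophages also express class II. Of 21 expressed monocyte genes 13 were higher in OVA and 11 in PBS. Of 15 expressed genes of border-associated macrophages 4 were higher in OVA and 1 in PBS. Their PBS median was -0.41, while H2-Eb1 (2.74) and H2-Ab1 (2.01) were higher in PBS too. All 15 had, like the chains, a more positive age difference in OVA than in PBS. The part of these cells in the class II values was not tested.

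The promoters of H2-Eb1 (chr17:34305617-34305866, plus strand) and H2-Aa (chr17:34287824-34288073, minus strand) are shown because class II genes are known to share a promoter module of X and Y boxes. The Y box holds a CCAAT motif, here CCAAT on either strand (ATTGG on the other), and capitals mark it. In H2-Aa capitals also mark TGACG on either strand, the core of a cyclic AMP response element, which overlaps itself there as TGACGTCA. CCAAT occurred in 33.8% of all 32851 promoters of 250 bases and TGACG in 17.8%, so each match alone is common. Of the 3 class II list members past 2-fold with an entry, H2-Aa and H2-Eb1 held CCAAT.
H2-Eb1: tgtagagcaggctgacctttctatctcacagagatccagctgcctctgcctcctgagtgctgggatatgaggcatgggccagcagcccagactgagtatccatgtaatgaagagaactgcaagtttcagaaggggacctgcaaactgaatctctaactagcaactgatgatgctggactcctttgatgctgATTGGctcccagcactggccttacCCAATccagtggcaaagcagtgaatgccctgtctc
H2-Aa: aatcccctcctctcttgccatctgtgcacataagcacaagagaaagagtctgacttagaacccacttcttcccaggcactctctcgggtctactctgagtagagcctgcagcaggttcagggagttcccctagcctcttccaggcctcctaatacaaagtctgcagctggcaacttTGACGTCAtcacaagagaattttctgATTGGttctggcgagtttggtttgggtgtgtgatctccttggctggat

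Most expressed immediate early genes were lower at P70, and the leading ones again differed more in OVA than in PBS. Dusp1, a phosphatase that switches off MAP kinases, read 14.83 in OVA P30 and 9.29 in OVA P70, with 11.52 and 8.75 in PBS. Its centred difference was -6.65 in OVA, 100.3-fold lower (46.4-fold as deposited), and -3.46 in PBS. Jun, a subunit of the AP-1 transcription factor, read 12.30 and 8.76 in OVA and 10.31 and 8.46 in PBS (-4.51 and -2.36). Its partner Fos read 9.12 in OVA P30, and 6.47 in OVA P70 and 6.30 in PBS P70, both under the floor (-2.79 and -0.74). For these 3 genes OVA P30 stood above the other 3 arrays, over PBS P30 by 3.31, 1.99 and 1.96 as deposited.

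Of 17 expressed immediate early genes, 11 were at least 2-fold lower at P70 in OVA and none higher, with a median of -1.84. Under the floor in both P70 arrays were 3 of the 11. In PBS 6 of the 17 were lower, with a median of -0.69. The antiproliferative genes Btg1 (12.30 to 9.64 in OVA, -3.69) and Btg2 (9.99 to 7.81, -2.76), the mRNA-destabilising Zfp36 (12.30 to 10.13, -3.23) and Zfp36l1 (14.27 to 12.95, -2.49) and the small GTPase gene Rhob (12.88 to 10.90, -3.08) followed. Egr1, a zinc finger factor, went from 8.57 to 6.85 (-1.84), and Ier2 (-1.29) and Atf3 (-1.10) completed the 11. Members that stayed under 2-fold were Ier5 (-0.95), Egr2 (-0.29), Myc (-0.18), Klf6 (-0.16), Zfp36l2 (0.01) and Nr4a1 (0.38). The other 15 genes found, Fosb, Jund, Egr3 and Ier3 among them, lay under the floor. Genes outside the list that also had their highest value in OVA P30 include the chemokine Ccl3 (14.14 to 12.08 in OVA, -3.21), the G-protein regulator Rgs1 (10.34 to 8.73, -2.35) and the linker histone gene H1f2 (12.49 to 10.57, -3.01).

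Glucocorticoid response genes were lower in part. The list, whose 11 expressed members include Dusp1 and Zfp36, had a median of -0.78 (-0.37 in PBS), with 4 lower and 1 higher, but -0.071 as deposited and -0.17 after quantile normalization. Sgk1, a kinase that steroids induce, read 11.89 and 10.53 in OVA (-2.42), and the metallothionein Mt1 was the higher member (1.27). Txnip, a regulator of glucose uptake, was -1.55 after centring and 0.65 after quantile normalization, so its direction was not settled. The other 7 genes found, Fkbp5 and Tsc22d3 among them, lay under the floor. Of 18 expressed heat shock genes 1 was higher, Dnajc3 (1.16), and 1 lower, the endoplasmic reticulum chaperone Hspa5 (-1.89). Over all expressed genes 5.13% were higher and 3.37% lower.

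The promoters of Dusp1 (chr17:26508473-26508722, minus strand) and Fos (chr12:85473640-85473889, plus strand) are shown for the lower group, since cyclic AMP response elements are a known feature of such promoters. Capitals mark TGACG on either strand. The motif was found in 5 of the 9 genes past 2-fold with an entry (Fos, Atf3, Dusp1, Btg2 and Btg1), against 17.8% of all promoters. The full palindrome TGACGTCA was found in Dusp1 and Btg2, against 1.55% of all promoters.
Dusp1: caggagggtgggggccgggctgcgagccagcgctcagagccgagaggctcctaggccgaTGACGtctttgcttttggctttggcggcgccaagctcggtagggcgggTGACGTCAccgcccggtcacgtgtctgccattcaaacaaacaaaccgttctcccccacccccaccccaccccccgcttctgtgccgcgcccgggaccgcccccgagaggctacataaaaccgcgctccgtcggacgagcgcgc
Fos: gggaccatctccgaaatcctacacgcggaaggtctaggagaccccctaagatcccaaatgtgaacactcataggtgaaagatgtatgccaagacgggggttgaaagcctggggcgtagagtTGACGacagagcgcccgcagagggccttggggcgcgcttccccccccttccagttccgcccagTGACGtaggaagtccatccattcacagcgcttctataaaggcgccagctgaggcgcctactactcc

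Homeostatic microglia genes held their place or stood lower relative to genes of like brightness, but their direction rested on the scaling. Of 33 expressed members 2 stood at least 2-fold higher and 4 lower, and the median was -0.55 after centring (-0.59 in PBS, 2 higher and 10 lower), against 0.50 as deposited, 0.09 with each array centred on its median and 0.68 after quantile normalization. The purine receptor gene P2ry12 read 13.29 in OVA P30 and 15.65 in OVA P70 (1.18), with 13.30 and 15.14 in PBS, and was higher under each scaling tried. Ltc4s, which makes leukotriene C4, read 7.34 and 9.97 (2.15). The 4 lower members were Rhob, the membrane-shaping Bin1 (10.85 to 10.65, -1.20), the growth factor receptor Csf1r (15.10 to 15.12, -1.15) and the transporter Slco2b1 (12.78 to 12.71, -1.21). As deposited Csf1r differed by 0.02 and Slco2b1 by -0.07, so centring sets their difference, and Slco2b1 was 0.06 after quantile normalization. Siglech (16.93 to 17.50, -0.55) and P2ry13 (16.70 to 17.52, -0.31) stayed under 2-fold.

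Genes known from microglia around plaques and in developing white matter were partly higher. Of 28 expressed members 8 stood at least 2-fold higher and 1 lower, with a median of 0.33 (0.13 in PBS, 5 higher and 2 lower). The dectin-1 gene Clec7a read 8.13 and 11.63 in OVA and 9.84 and 10.63 in PBS, a centred difference of 2.66 in OVA and 0.10 in PBS. Lgals1, a galectin, was under the floor in both P30 arrays (6.86 in OVA, 7.10 in PBS) and read 10.99 in OVA P70 (3.55). It passed the filter through the P70 arrays, so its difference follows in part from the filter. The oxidase subunit Cybb read 8.25 and 11.83 (2.71), the inhibitory receptor Lilrb4a 8.18 and 11.32 (2.35) and the protease inhibitor Cst7 7.79 and 9.61 (1.30). Cd68, a lysosomal glycoprotein of phagocytes, read 13.47 and 15.95 (1.30) and the chemokine Ccl6 10.18 and 12.50 (1.25). Lyz2, also on the monocyte list, was the largest of the 8, and Ccl3 was the lower member. Monocytes and neutrophils express several of these genes, Cybb, Lgals1 and Ccl6 among them. The part of these cells in the values of this list was not tested. Members that stayed under 2-fold include Cd9 (0.97), Lpl (0.59), Itgax (0.40), Axl (0.19), Lgals3 (-0.06), Csf1 (-0.23) and Apoe (-0.25). Gpnmb, Igf1 and Fabp5 lay under the floor.

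Among complement and phagocytosis genes 5 of 32 expressed members were higher and 3 lower, with a median of 0.15 (-0.13 in PBS). The background was 5.13% higher and 3.37% lower. The IgG receptor gene Fcgr4 read 6.93 and 10.61 in OVA (3.15), its signalling chain Fcer1g 11.76 and 13.97 (1.07) and the anaphylatoxin receptor C3ar1 11.70 and 13.86 (1.02), with Cd68 as above. The scavenger receptor Cd36 read 6.94 in OVA P30 and 8.19 in OVA P70 (1.19), while PBS read 6.99 and 6.88. For Cd36 both P30 arrays and PBS P70 lay under the floor. It passed the filter through OVA P70, so its difference follows in part from the filter. Lrp1, an endocytic receptor, was lower (11.78 to 11.32, -1.54). C1qa (13.43 to 13.56, -1.02) and the integrin Itgam (13.33 to 13.34, -1.15) were lower after centring only, since as deposited they differed by 0.14 and 0.01. Lysosome genes showed no shared direction: 1 of 40 was higher, the proton pump subunit Atp6v1e1 (1.46), and 1 lower, Psap, the saposin precursor (-1.07, and 1.05 after quantile normalization), with a median of 0.04.

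Type 2 and interferon genes were higher in part. Of 17 expressed type 2 and alternative activation genes 5 were higher and none lower, with a median of 0.39 (0.15 in PBS): Ltc4s, Cd209a, Alox5ap (13.17 to 16.05, 1.70), Retnla (6.88 to 8.58, 1.57) and Fcer1g. Alox5ap and Ltc4s act in leukotriene synthesis, and Retnla is a resistin-like gene induced by interleukin-4. The other 11 members found, Arg1 among them, lay under the floor. Of 29 expressed interferon genes 5 were higher and none lower, with a median of 0.02: the DNA sensors Ifi204 (8.25 to 11.02, 1.999) and Ifi211 (7.84 to 10.42, 1.94), the antiviral Ifitm3 (1.65), Rtp4 (1.26) and the RNA sensor Ifih1 (1.16). Ifi204 and Ifi211 come from a family of near-identical copies, and their signals are uncertain. Of 27 expressed cytokine and NF-kB genes 4 were higher, Il6 (6.93 to 8.73, 1.63), Casp1 (1.35), Ccl12 (1.04) and Cd14 (1.02), and Ccl3 was lower. Retnla, Rtp4 and Il6 were under the floor in both P30 arrays and passed the filter through the P70 arrays. The differences of these genes follow in part from the filter. Over all expressed genes 5.13% were higher and 3.37% lower.

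Genes of the respiratory chain were higher as a group in OVA and in PBS alike. Of 69 expressed nuclear genes of oxidative phosphorylation 18 stood at least 2-fold higher with none lower, 60 were above 0, and the median was 0.59 (0.60 in PBS, 22 higher). Of the 18, 2 (Uqcrfs1 and Atp5e) were under the floor in both P30 arrays, so their differences follow in part from the filter. The complex III subunit Uqcr10 read 7.44 and 10.36 in OVA (2.34), the complex I subunit Ndufa2 10.99 and 14.26 (2.14), and the complex IV subunit Cox7a2 11.82 and 15.01 (2.04). Ndufb7 (1.88) and Ndufa4 (1.81) followed, and for these 5 genes both P70 arrays were above both P30 arrays. Mitochondrially encoded genes, named after their values were seen, split: of 5 expressed, ND3 (9.70 to 15.06, 4.24), ND2 (9.41 to 14.20, 3.69) and COX2 (9.18 to 12.13, 1.96) were higher, ND6 was not (11.81 to 12.45, -0.48), and COX1 lay at the top of the scale. All 3 higher ones were also higher in PBS, ND2 by 1.63. Of 55 mitochondrial ribosomal protein genes 4 were higher and none lower (4 higher in PBS too), a share near the 5.13% of all expressed genes, with a median of 0.43. Of 36 cytosolic ribosomal protein genes 6 were higher and none lower, with a median of 0.44. Rpl27 (11.66 to 15.41, 2.59) led them, and pseudogenes with near-identical sequence make ribosomal signals uncertain. Glycolysis genes had no member past 2-fold among 19 expressed.

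**Figure D4:**
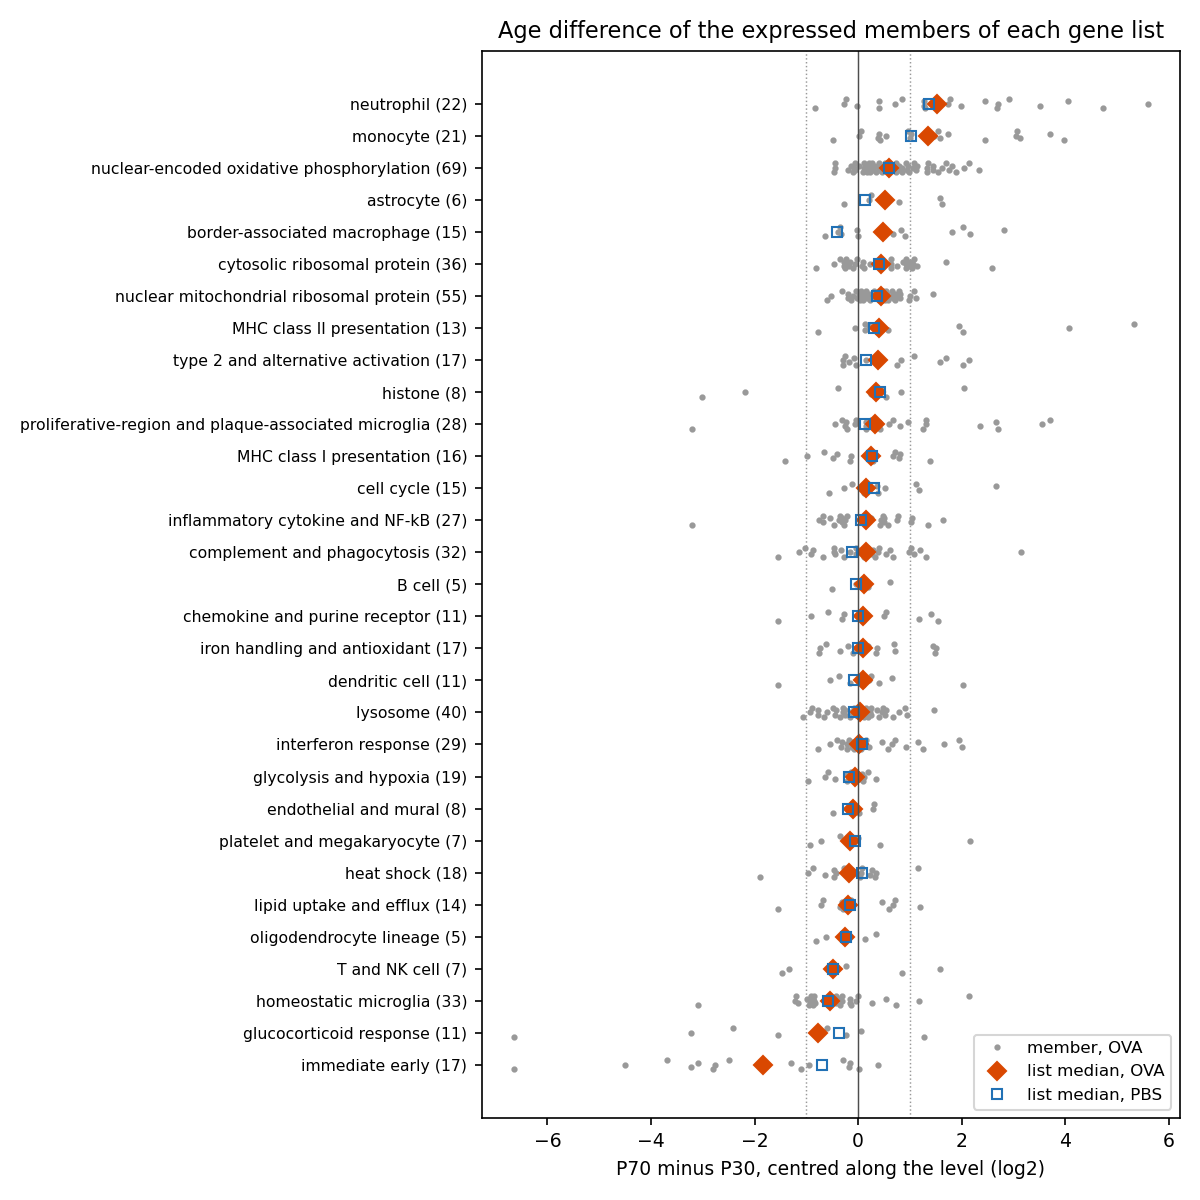
P70 minus P30 after centring (horizontal axis, log2) for each of the 31 lists with at least 5 expressed members (number in brackets); grey points are members in OVA, diamonds the list median in OVA and open squares the list median in PBS, with dotted lines at 2-fold. Neutrophil and monocyte lists have the highest medians, the immediate early list the lowest (-1.84), and most others lie within 0.5 of 0.

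Most proliferation genes lay under the floor. Of 43 cell cycle genes found 15 were expressed, and of these the tubulin-binding Stmn1 (8.50 to 10.38 in OVA, 1.17) was higher, while Pcna, the sliding clamp of DNA replication, read 11.18 and 12.44 (0.15) and Tyms, thymidylate synthase, 9.29 and 10.20 (0.10). The cycling marker Mki67 (6.79 to 9.79 in OVA, 7.13 to 8.56 in PBS) and the cyclin Ccnb2 (6.83 to 7.89 in OVA) were under the floor in both P30 arrays and passed the filter through the P70 arrays, so their differences of 2.67 and 1.11 follow in part from the filter. Of 8 expressed histone genes, H2az2 was higher (2.05), and the linker histones H1f2 (-3.01) and H1f3 (-2.18) were lower.

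The lowest differences outside the immediate early genes lay in multicopy families with sequence shared between copies. A broad symbol pattern for such genes matched 7.29% of the expressed genes, 46 of the lowest 100 and 23 of the highest 100. The pattern also matched ribosomal protein symbols such as Mrps17 and markers such as Ly6c2, Klrd1 and Cd209a. These shares are therefore not counts of multicopy genes alone. Sly, a gene of the Y chromosome known from spermatids, read 14.0008 in OVA P30 and 10.70 in OVA P70, with 14.02 and 11.52 in PBS (-4.43 in OVA, -3.45 in PBS). Of 11 expressed Speer genes, a family of testis proteins, 9 were lower and none higher, with a median of -1.92 (-1.27 in PBS, 7 lower). Speer8-ps1 (13.68 to 10.89, -3.91), Speer4d (-3.28), Speer4c (-3.17) and Speer4e (-2.89) led them. Their probes may read several copies, and these signals are uncertain. Xdh, xanthine dehydrogenase, was a gene outside these families and lists with both P70 arrays under both P30 arrays (16.72 to 14.75 in OVA and 16.80 to 15.67 in PBS, -3.13 and -2.18).

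The age difference in OVA resembled that in PBS. The OVA and PBS age differences share no array. Across the 8812 expressed genes they correlated at r = 0.85 (Spearman's rho = 0.81), a description over genes, which are not independent replicates. Of the 452 genes at least 2-fold higher in OVA, 449 were above 0 in PBS, and of the 297 lower genes 296 were below 0 in PBS. The larger difference was in OVA for 4900 of the 8812 expressed genes (55.6%). Genes chosen in 1 treatment tend to be larger there: OVA had the larger difference in 364 of the 452 chosen as higher in OVA, and in 168 of the 371 chosen as higher in PBS. The genes past 2-fold in both treatments were 256 higher, which is 56.6% of the OVA list and 69.0% of the PBS list, and 162 lower (54.5% and 68.1%). No gene was past 2-fold in opposite directions. These shares describe thresholds on single arrays, and the SD of the centred differences was 0.62 in OVA and 0.53 in PBS.

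**Figure D5:**
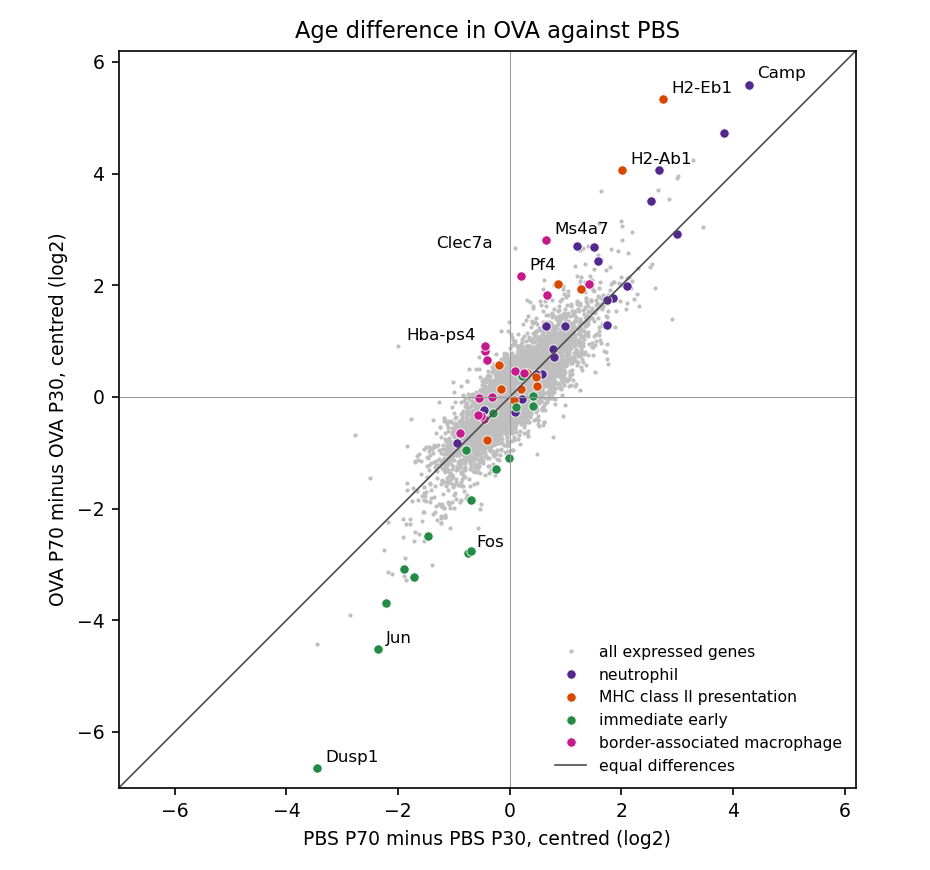
Centred P70 minus P30 in OVA (vertical axis, log2) against the same in PBS (horizontal axis, log2), 1 point per expressed gene with 4 lists in colour; the diagonal marks equal differences. H2-Eb1, H2-Ab1, Clec7a, Ms4a7, Pf4 and Hba-ps4 lie above the diagonal, and Dusp1, Jun and Fos below it.

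The OVA age difference exceeded that in PBS by at least 2-fold in 62 genes (0.704%) and lay under it by at least 2-fold in 46 (0.522%); this difference of differences was not tested. The most positive were Hba-ps4 (2.91), H2-Eb1 (2.59), Clec7a (2.57), Ms4a7 (2.16), Rn28s1 (2.08), H2-Ab1 (2.06), ND2 (2.06) and Pf4 (1.96). Hba-ps4 is an alpha-globin pseudogene and Rn28s1 a ribosomal RNA, both with many copies and uncertain. The most negative were Dusp1 (-3.19), Jun (-2.15), Btg2 (-2.07), Fos (-2.06), Rgs1 (-1.78), H1f2 (-1.61), Zfp36 (-1.51) and the ribosomal pseudogene Rps2-ps9 (-1.50). As deposited, 41 of the 62 were further apart at P70 than at P30, near the share of all genes (5572 of 8812), and 26 of the 46 were further apart at P30 (3240 of 8812 over all genes). The class II chains lay further apart at P70 and the leading immediate early genes at P30, as the values above show.

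Genes of border-associated macrophages, which live along vessels and in the meninges, shared a more positive age difference in OVA than in PBS. All 15 expressed members had a more positive difference in OVA, against 49.5% of all expressed genes, and 6 of them by at least 2-fold, against 0.704%. With each array centred on its median, 13 of the 15 were more positive. The share of all expressed genes was 63.9% as deposited and 67.7% after quantile normalization of the 4 arrays, with all 15 members more positive in both. The list was chosen with earlier results of these data known, so these counts are a description only. In OVA 4 of them stood at least 2-fold higher with none lower (median 0.47, background 5.13% higher), in PBS 1 was higher (median -0.41). Ms4a7 read 7.33 and 10.77 in OVA and 7.91 and 8.82 in PBS (2.81 and 0.65). Pf4, a chemokine also stored by platelets, read 8.45 and 11.47 in OVA and 8.85 and 9.51 in PBS (2.16 and 0.20). The lectin genes Clec12a (7.76 to 10.17, 1.82) and Cd209a (8.38 to 11.21, 2.02) were the other higher members. The mannose receptor Mrc1 (8.31 to 9.74 in OVA, 8.76 to 8.68 in PBS) and the endocytic adaptor Dab2 (8.11 to 9.58, and 8.45 to 8.27) were higher in OVA P70 than in the other 3 arrays. Of the defining markers, Lyve1, Folr2 and Siglec1 lay under the floor, and Cd163 (0.00) and Stab1 (-0.64) were not higher. The summed intensity of the 21 genes found was 50297 in PBS P30, 40555 in OVA P30, 69727 in PBS P70 and 91665 in OVA P70.

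Markers of non-myeloid brain cells were few. Of 23 neuron genes found 2 were expressed, of 22 astrocyte genes 6, of 22 oligodendrocyte genes 5 and of 36 endothelial and mural genes 8. The astrocyte genes Sparcl1 (6.57 to 8.15 in OVA, 1.62) and Cpe (7.07 to 8.85, 1.58) were higher, both under the floor in both P30 arrays, and no expressed neuron, oligodendrocyte or endothelial gene passed 2-fold. Ttr, the thyroid hormone carrier of the choroid plexus, read 9.32 in OVA P30 and 12.02 in OVA P70, with 7.45 and 7.90 in PBS, so both OVA arrays lay above both PBS arrays (1.71 and 0.37 after centring). The other expressed member of the ependymal and choroid plexus list, the channel subunit Kcne2, was lower (8.67 to 7.89 in OVA, -1.10), and the other 15 found lay under the floor. Of the T and NK cell genes 7 of 25 were expressed, with Klrd1 higher (1.58) and Klrb1c (-1.47) and Lat (-1.33) lower. Of 4 expressed mast cell, basophil and eosinophil genes none was higher, and Prss34 was lower (-1.13). The part of these cells in the values above was not tested.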

How the data were processed

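Intensities on a linear scale were deposited by the authors, 1 value per probe set and array, for 65956 probe sets. Affymetrix Expression Console 1.4.1 and RMA appear in the submitters' processing notes, with no roles given. The genome build and the scaling between arrays are not given in the sources used here. The platform annotation gives 1 symbol for 30604 of them, several for 2146 and none here for 33206, and 827 symbols were updated with a RefSeq table (GRCm38.p6, names only).

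Antigen receptor segments, vomeronasal and olfactory receptors, small RNAs, Rik clones and predicted genes (12748 probe sets) were left out, with small RNA patterns added after the data were seen. The brightest probe set stood for each gene, and log2 P70 minus P30 was centred by lowess (span 0.3) in Python 3.11.15 with statsmodels 0.14.6. The code was tested on simulated data. With 1 array per group no test was run, so genes were counted at 2-fold.

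Lists (35, with 1068 symbols, of which 910 were found and 588 expressed) may overlap. Named genes are the 14 highest and 14 lowest, the 8 most positive and 8 most negative against PBS, and per list the 5 largest and 2 brightest; other members past 2-fold, contrasts, motifs and multicopy patterns were chosen with the values in view. Members and lists were chosen with earlier results of these data known. The number of arrays limits the precision. Alternatives covered centring, normalization, filters, pseudocount, probe sets and threshold.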

Additional observations from a re-analysis of the deposited data

Results flagged for a closer look

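Of 193 named genes, 13 had centred age differences of opposite sign in OVA and PBS, and 6 of these kept opposite signs as deposited. With 1 array in each group, the difference between OVA and PBS was not tested for any of them. Cd36, which lay above the floor in OVA P70 only, was 1.19 in OVA and -0.03 in PBS. Dab2 was 0.91 and -0.43, Ndrg2, a gene of astrocytes, 0.79 and -0.11, and the B cell receptor gene Cd22, whose levels lay at the floor, 0.20 and -0.05. The globin pseudogene Hba-ps4 was 0.92 and -1.99, and the ribosomal pseudogene Rps2-ps9 was -1.02 and 0.48; both share sequence with other copies.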

How the results depend on the processing

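No paired analysis was possible because each group has 1 array and the groups share a single replicate number. The counts of genes at least 2-fold higher and lower (452 and 297 as reported) came to 1741 and 138 as deposited, 794 higher with each array centred on its median, 1639 and 124 after quantile normalization, 296 higher under the stricter filter and 990 and 2027 with no class of gene left out. At 1.5-fold they were 1170 and 948, and at 3-fold 140 and 91. Lists with a median of at least 0.5 in size (7 as reported) were 21 as deposited, 20 after quantile normalization, 4 with no filter and 11 with no class left out. For the age difference in OVA minus age difference in PBS, the genes at least 2-fold apart (108) were 163 after quantile normalization of 4 arrays, 166 with no filter and 690 with no class left out. Of 31 list medians 8 changed sign as deposited, with median centring or after quantile normalization, as did 40 of 193 named genes; 7 of the lists and 36 of the genes were under the size counted here, heat shock and Gapdh among them. The others were the homeostatic list (0.50 as deposited, 0.088 with median centring, 0.68 after quantile normalization), Itgam (0.0061 as deposited, 0.20 after quantile normalization), Psap (0.065 and 1.05) and, after quantile normalization, Slco2b1 (0.059) and Txnip (0.65). The glucocorticoid list (-0.78) shrank to -0.071 as deposited. The cause of these changes was not tested. Signals near the floor of 7.18 and at the highest values limit what can be read.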

Other observations

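MHC class I genes lay on both sides of 0. Of 16 expressed members 1 was at least 2-fold higher at P70 in OVA, the immunoproteasome subunit Psmb10 (8.81 to 11.03, 1.38), and 1 lower, the chaperone Calr (12.62 to 12.33, -1.42), with a median of 0.24 (0.27 in PBS). B2m, the light chain of class I, read 16.20 and 18.12 in OVA (0.80). The background in OVA was 5.13% higher and 3.37% lower. Among iron and antioxidant genes 3 of 17 were higher and none lower: the peroxidase Gpx1 (10.50 to 13.11, 1.51), thioredoxin Txn1 (9.97 to 12.52, 1.49) and superoxide dismutase Sod1 (12.70 to 15.33, 1.45), each also higher in PBS (1.05, 0.77 and 1.09). The chemokine receptor Cxcr4 read 6.45, under the floor, in both P30 arrays, 7.61 in OVA P70 and 9.496 in PBS P70, with centred age differences of 1.399 in OVA and 2.90 in PBS. Cxcr4 passed the filter through the P70 arrays, so these differences follow in part from the filter.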
